A study of Mus musculus with 6 samples.

Results

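The signalling apparatus of the T cell antigen receptor was followed through 9 genes in mouse group 2 innate lymphoid cells (ILC2s). They are the receptor gamma constant gene Trgc1, the CD3 chains Cd3g, Cd3d and Cd3e, the zeta chain Cd247, the kinases Lck and Zap70, and the adaptors Lat and Lcp2. The genes were set by name and not by a cut on a measured value, but earlier results of these data were known. All 9 were found among the 27179 genes of the count table. ILC2s are lymphocytes that make type 2 cytokines and carry no rearranged antigen receptor at their surface. They had been sorted into a Chat negative and a Chat positive gate, with 3 libraries per gate and each library numbered 1 to 3. Chat encodes choline acetyltransferase, which makes acetylcholine. The labels give no genotype, strain, age, tissue or treatment of the mice, no means of detecting Chat and no word on whether the libraries came from separate mice. The p-values therefore measure the spread between these libraries, which may be technical.

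In a T cell, a receptor of paired alpha and beta or gamma and delta chains sits in the membrane with the CD3 gamma, delta, epsilon and zeta chains, whose cytoplasmic tails carry tyrosine motifs called ITAMs. LCK phosphorylates these motifs when antigen is bound, ZAP70 docks on them, and ZAP70 then phosphorylates the adaptors LAT and SLP-76, the latter encoded by Lcp2. The adaptors gather the enzymes that release calcium and activate Ras and protein kinase C. Innate lymphoid cells use several of these proteins behind other receptors, and ILCs and T cells descend from a common lymphoid progenitor.

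The libraries held 37154269 to 50361306 counts, and 12967 genes passed the filter on low counts. All 9 receptor signalling genes passed it. Levels are given as CPM, a gene's counts divided by the scaled library total and multiplied by 1000000. Chat stood at 16.5, 26.5 and 17.5 CPM in Chat negative libraries 1 to 3 and at 188, 169 and 204 CPM in the Chat positive libraries, in accord with the gates' names. It was the 1 gene of 12967 (0.00771%) that passed the 5% threshold between the gates in edgeR's quasi-likelihood test (log2 difference 3.21, adjusted p = 0.0174). Without library 1 or 3 of either gate 0 genes passed, and with the replicate number as a block 44 did. All 11 listed ILC2 markers were detected in every library. Il5 stood at 5730 to 13761 CPM, Id2 at 2096 to 2787 CPM and Gata3 at 1603 to 2544 CPM. Detection alone does not establish the ILC2 label, since some markers of other cell types were detected as well. Libraries with the same number deviated together from their gate's mean, and across genes the deviations of the pair numbered 1 correlated at 0.31, of the pair numbered 2 at 0.70 and of the pair numbered 3 at 0.46. Chat negative library 1 correlated as much with Chat positive library 3 (0.33), and Chat negative library 3 with Chat positive library 1 at 0.22, whereas every pairing of a library numbered 2 with another number was negative (-0.56 to -0.37). Deviations within a gate sum to 0 for each gene, so these negative values follow in part from the 0.70 and are no separate support. The correlations set the libraries numbered 2 apart and do not single out the pair numbered 1. Genes are not independent replicates, and the labels do not say what the number stands for.

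The genes of the receptor apparatus were present at very unequal levels, and none passed the test between the gates. Receptor gamma constant transcripts, both downstream adaptors and Zap70 were abundant, whereas the CD3 delta, CD3 epsilon and zeta chains were scarce. In edgeR's test 0 of the 9 genes passed the threshold, where 0.00771% of all genes did. None of the 9 had an unadjusted p under 0.05 in that fit, against 2.43% of all genes. With the replicate number as a block 4 of the 9 did (Trgc1, Lck, Cd247 and Lcp2), against 16.5% of all genes, and none passed after adjustment. DESeq2 and limma-voom, fitted without the replicate number, also called 0 of the 9. Over all genes DESeq2 called 0.0308%, and limma-voom called 1 gene of 12967.

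Trgc1 encodes the constant region of a receptor gamma chain. It lies on chromosome 13 at 19214103 to 19216618 (GRCm38, the assembly behind mm10). The mouse genome holds 3 other gamma constant genes that resemble it, and how well they can be told apart bears on every value of Trgc1. The first 120 bases of the first coding exon of each gene are shown for that reason, from the GRCm38 genome and on the gene's own strand, with capitals marking bases that differ from Trgc1.
Trgc1, chr13:19214103-19214222, plus strand: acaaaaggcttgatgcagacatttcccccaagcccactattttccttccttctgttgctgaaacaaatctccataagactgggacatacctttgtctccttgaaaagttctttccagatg
Trgc2, chr13:19307432-19307551, minus strand: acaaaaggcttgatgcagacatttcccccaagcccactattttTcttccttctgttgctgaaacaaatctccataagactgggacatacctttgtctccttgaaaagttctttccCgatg
Trgc3, chr13:19260885-19261004, plus strand: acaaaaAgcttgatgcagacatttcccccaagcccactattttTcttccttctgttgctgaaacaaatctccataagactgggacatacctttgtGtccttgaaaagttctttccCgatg
Trgc4, chr13:19344558-19344677, plus strand: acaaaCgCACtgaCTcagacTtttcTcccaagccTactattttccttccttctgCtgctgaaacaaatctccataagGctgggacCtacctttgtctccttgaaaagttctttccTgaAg

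Trgc2 and Trgc3 differed from Trgc1 at 2 and 4 of these 120 bases, and Trgc4 at 14. Over the aligned coding sequence Trgc2 and Trgc3 were 97.4% and 96.8% identical to Trgc1, with identical runs of up to 86 and 94 bases, whereas Trgc4 was 77.3% identical with runs of up to 29 bases. Nothing in the labels says how reads matching more than 1 gene were counted, so the division of counts between Trgc1, Trgc2 and Trgc3 is uncertain.

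Trgc1 was the most abundant of the 9 genes once levels were divided by transcript length. Chat negative libraries 1, 2 and 3 gave 237, 308 and 239 CPM and the Chat positive libraries with the same numbers 202, 262 and 201 CPM. Library 2 was the highest in each gate, and the gates overlapped. The means were 261 ± 40.7 CPM (SD, n = 3) and 222 ± 35.0 CPM (SD, n = 3). The log2 difference of Chat positive minus Chat negative was -0.24 (SE 0.16, 95% interval -0.61 to 0.14). The adjusted p from edgeR was 1.00. The Chat positive library was the lower for 3 of 3 numbers, a pattern that 17.3% of all genes showed. Once the number entered as a block, edgeR gave Trgc1 an adjusted p of 0.10 and called 0 of the 9 genes, against 0.339% of all genes, and DESeq2 called it lower in Chat positive cells (log2 difference -0.25, adjusted p = 0.00480). DESeq2 with the block called 3.67% of all genes, and 2.2% of all genes as lower. On simulated data the blocked edgeR fit gave more false calls than its threshold allows, and the blocked DESeq2 fit was not simulated. Of the 9 genes it called Trgc1 only, and it gave no adjusted p for Cd3d and Cd3e.

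The CD3 chains came next to the receptor chains in the complex, and 1 of the 3 was far more abundant than the others. Cd3g, which encodes the CD3 gamma chain, stood at 39.8, 19.1 and 27.2 CPM in Chat negative libraries 1 to 3 and at 39.1, 14.6 and 32.6 CPM in Chat positive libraries 1 to 3. Library 2 was the lowest of each gate, and the gates overlapped throughout. The means were 28.7 ± 10.4 and 28.8 ± 12.7 CPM (SD, n = 3 each). The log2 difference was 0.00 (SE 0.40, 95% interval -0.95 to 0.96). That interval spans changes of nearly 1 log2 unit in either direction, so the libraries cannot show that the gates were alike for Cd3g.

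Cd3e encodes the epsilon chain, which pairs with both the gamma and the delta chain. Its levels were 4.06, 3.11 and 4.86 CPM in Chat negative libraries 1 to 3, and 4.57, 1.83 and 2.81 CPM in Chat positive libraries 1 to 3. These rest on 94 to 210 counts per library. Library 2 was again the lowest in each gate, and the gates overlapped (log2 difference -0.39, SE 0.38).

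Cd3d, for the delta chain, was the least abundant of the 9 genes. It had 44, 68 and 87 counts in Chat negative libraries 1 to 3 and 36, 47 and 39 counts in the Chat positive ones. These equal 1.04, 1.57 and 2.01 CPM against 0.973, 0.913 and 0.969 CPM. Every Chat positive library was below every Chat negative one, by a narrow margin for Chat negative library 1. The log2 difference was -0.69 (SE 0.36, unadjusted p = 0.098) and its adjusted p from edgeR was 1.00. Such a separation with Chat positive lower occurred in 3.61% of all genes.

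Per kilobase of transcript, Cd3g was 8.0 to 16.6 times as abundant as Cd3e and 19.3 to 63.6 times as abundant as Cd3d within single libraries. The ratios use the longest transcripts, of 1023 bases for Cd3g, 1462 for Cd3e and 1617 for Cd3d. Shorter transcripts of Cd3e or Cd3d would lower them. The 3 genes are neighbours on chromosome 9. In the GENCODE annotation, Cd3g and Cd3d are transcribed in opposite directions from starts 1355 bases apart. Cd3g lies at 44969572 to 44980431 on the minus strand and Cd3d at 44981786 to 44987339 on the plus strand. Cd3e lies at 44998740 to 45009627 on the minus strand. The whole cluster spans 40056 bases. The annotation also places the antisense gene Gm48719 across exons of Cd3e, and the labels give no strand setting for the counting, so reads of the pair cannot be told apart.

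The promoters of the 3 CD3 genes are shown because these neighbours differed in level. Each run covers 250 bases before to 50 after the transcription start, from RefSeq on GRCm38.p6, 5′ to 3′ on the gene's own strand, with capitals marking CACCTG.
Cd3g, chr9:44980382-44980681, minus strand: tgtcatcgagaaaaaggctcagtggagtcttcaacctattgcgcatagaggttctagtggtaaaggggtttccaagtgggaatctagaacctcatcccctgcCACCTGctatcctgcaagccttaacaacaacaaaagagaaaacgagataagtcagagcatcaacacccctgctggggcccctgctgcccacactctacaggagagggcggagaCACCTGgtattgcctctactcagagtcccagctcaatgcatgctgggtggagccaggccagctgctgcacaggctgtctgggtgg
Cd3d, chr9:44981536-44981835, plus strand: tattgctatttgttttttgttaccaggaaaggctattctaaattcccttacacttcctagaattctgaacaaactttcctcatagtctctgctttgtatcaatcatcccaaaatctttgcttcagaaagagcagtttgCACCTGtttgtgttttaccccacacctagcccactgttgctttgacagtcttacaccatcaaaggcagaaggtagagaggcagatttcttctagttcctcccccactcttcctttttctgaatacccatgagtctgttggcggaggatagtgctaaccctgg
Cd3e, chr9:45009562-45009861, minus strand: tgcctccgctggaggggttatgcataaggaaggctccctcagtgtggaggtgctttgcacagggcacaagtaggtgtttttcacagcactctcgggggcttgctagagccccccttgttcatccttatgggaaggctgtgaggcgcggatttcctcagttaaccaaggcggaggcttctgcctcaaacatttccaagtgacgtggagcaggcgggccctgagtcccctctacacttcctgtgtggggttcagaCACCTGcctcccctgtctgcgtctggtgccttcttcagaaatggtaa

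CACCTG is a form of the E-box, the element bound by E proteins of lymphocytes. Both strands were searched. It occurred 2 times in the Cd3g promoter and 1 time in each of the other promoters, and 20.2% of all 32851 promoters of the same length hold it. AGATAA, a form of the GATA element, occurred 1 time, in Cd3g, and in 11.2% of all promoters. TGTGGT, a form of the RUNX element, was found in none of the 3 and in 16.8% of all promoters. CACCTG was picked after it had been seen in these sequences, and a match of letters describes the window only.

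Cd247, which encodes the zeta chain that carries most of the complex's ITAMs, stood at 6.85, 10.2 and 7.20 CPM in Chat negative libraries 1 to 3 and at 10.5, 11.5 and 9.07 CPM in Chat positive libraries 1 to 3. The gates overlapped, but the Chat positive library was the higher for 3 of 3 numbers, as it was for 22.3% of all genes. The log2 difference was 0.35 (SE 0.22, 95% interval -0.16 to 0.87, adjusted p from edgeR 1.00). Cd247 shares exon sequence with Pou2f1 on the opposite strand of chromosome 1. Pou2f1, a transcription factor gene, stood at 10.7 to 16.0 CPM, so some of these counts could belong to either gene.

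**Figure D1:**
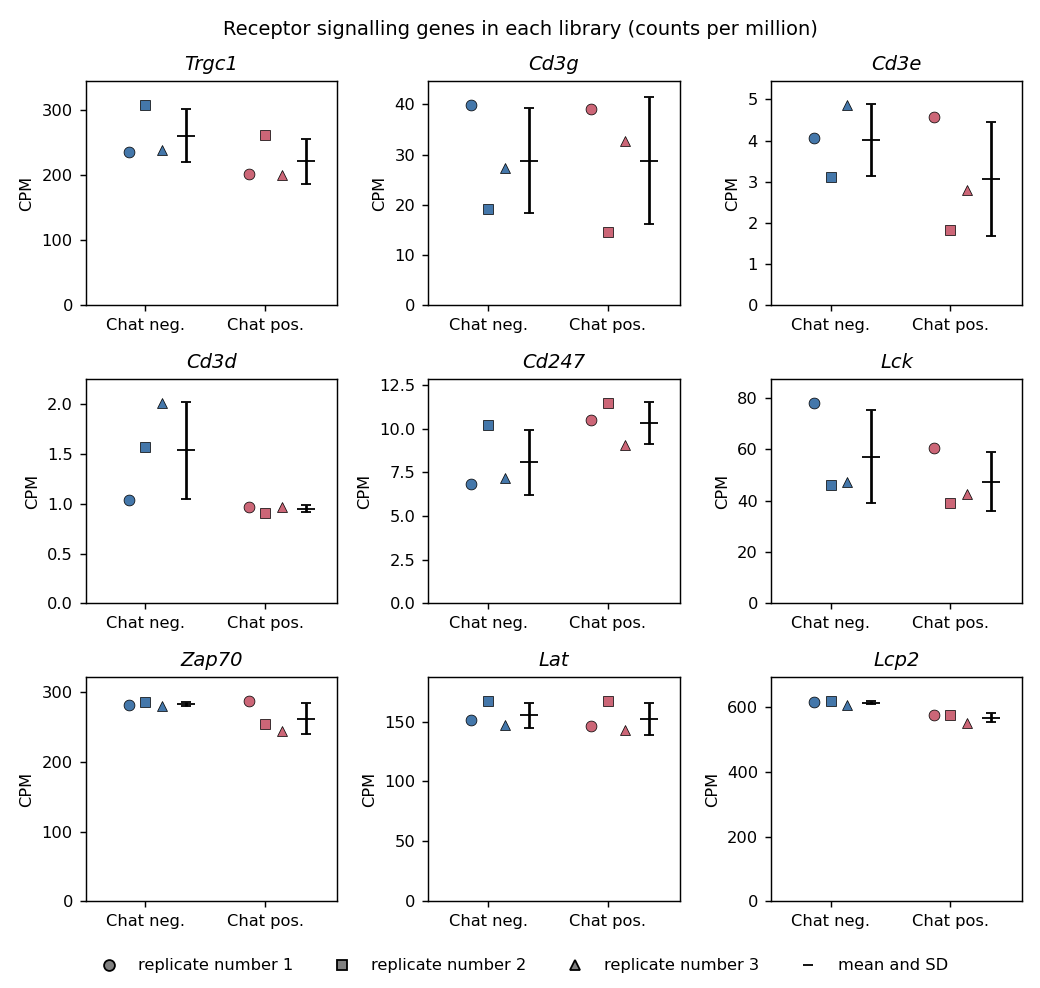
CPM in each library for the 9 receptor signalling genes, with 1 panel per gene, linear axes from 0, the gates side by side, a marker shape for each replicate number and bars for mean and SD of 3 libraries. The gates overlap for 7 genes. For Cd3d (0.913 to 0.973 against 1.04 to 2.01 CPM) and Lcp2 (551 to 577 against 608 to 619.6 CPM) the Chat positive libraries are all below the Chat negative ones.

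Among the kinases, Zap70 was high and even across libraries, whereas Lck was lower and less even. Lck, the Src family kinase that phosphorylates ITAMs, stood at 78.0, 46.2 and 47.1 CPM in Chat negative libraries 1 to 3 and at 60.6, 39.0 and 42.7 CPM in the Chat positive ones. Library 1 was the highest in each gate, and the gates overlapped. The log2 difference was -0.27 (SE 0.26, 95% interval -0.88 to 0.35). The Chat positive library was the lower for 3 of 3 numbers, and with the number as a block edgeR gave -0.25 (SE 0.078, unadjusted p = 0.0104, adjusted p = 0.17). Without Chat negative library 1 and without the block, the difference was 0.024.

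Zap70, the kinase that docks on phosphorylated ITAMs, stood at 281, 286 and 281 CPM in Chat negative libraries 1 to 3 and at 287, 255 and 245 CPM in the Chat positive ones. The highest of the 6 values was Chat positive library 1 and the lowest Chat positive library 3, so the gates overlapped. The log2 difference was -0.11 (SE 0.10, 95% interval -0.34 to 0.12). Per kilobase Zap70 exceeded Lck 3.51 to 6.37 times, and exceeded Cd247, which encodes the chain it docks on, 29.3 to 54.1 times. Syk, the relative of Zap70 used by B cells and mast cells, was also scarce beside Zap70, which exceeded it 18.3 to 53.3 times per kilobase.

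The adaptors varied little between libraries. Lat, a membrane scaffold for phospholipase C gamma and Ras activators, stood at 152, 167 and 147 CPM in Chat negative libraries 1 to 3 and at 146, 167 and 143 CPM in the Chat positive ones. The values nearly coincided number by number (log2 difference -0.03, SE 0.11, 95% interval -0.28 to 0.22). Lat2, the related adaptor NTAL, was more abundant, and Lat stood at 0.452 to 0.729 of the Lat2 level per kilobase.

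Lcp2 stood at 616, 619.6 and 608 CPM in Chat negative libraries 1 to 3 and at 575, 577 and 551 CPM in the Chat positive ones. All Chat positive libraries were below all Chat negative ones, and the gap was small beside the level. The means were 615 ± 5.74 and 568 ± 14.3 CPM (SD, n = 3 each), with a log2 difference of -0.12 (SE 0.09, adjusted p from edgeR 1.00). Lcp2 and Cd3d were the only 2 of the 9 whose gates did not overlap, where 8.14% of all genes showed such a separation in either direction. None of the 9 was separated with Chat positive above, as 4.53% of all genes were. Lcp2 also shares exon sequence with a gene on the opposite strand, 4930469K13Rik.

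**Figure D2:**
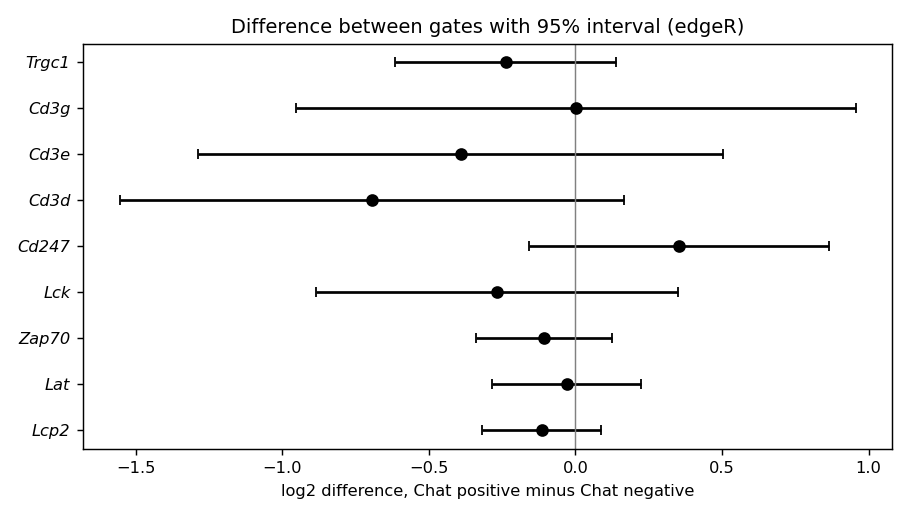
Log2 difference of Chat positive minus Chat negative (x axis) for each of the 9 genes (y axis), with points for the edgeR estimate and bars for its 95% interval over 3 libraries per gate. All intervals include 0, and the widest belong to Cd3g (-0.95 to 0.96), Cd3e and Cd3d.

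Ordered by mean CPM per kilobase of transcript over the 6 libraries, Trgc1 led at 261, followed by Lcp2 at 162, Lat at 124, Zap70 at 121, Cd3g at 28.1, Lck at 23.9, Cd247 at 3.12, Cd3e at 2.42 and Cd3d at 0.771. The library ranges of Lat and Zap70 overlapped, as did those of Cd3g and Lck and those of Cd247 and Cd3e, so these neighbours cannot be ordered. The widest gap between neighbours was the one from Lck to Cd247, a ratio of 7.67 in the means. Among the tested genes with a length, Trgc1 lay at the 98.3rd percentile, Lcp2, Lat and Zap70 at the 96.9th, 95.4th and 95.3rd, and Cd247, Cd3e and Cd3d at the 33.7th, 30.1st and 17.2nd. The 4 chains of the CD3 complex thus fell between the 17.2nd and the 77.4th percentile.

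**Figure D3:**
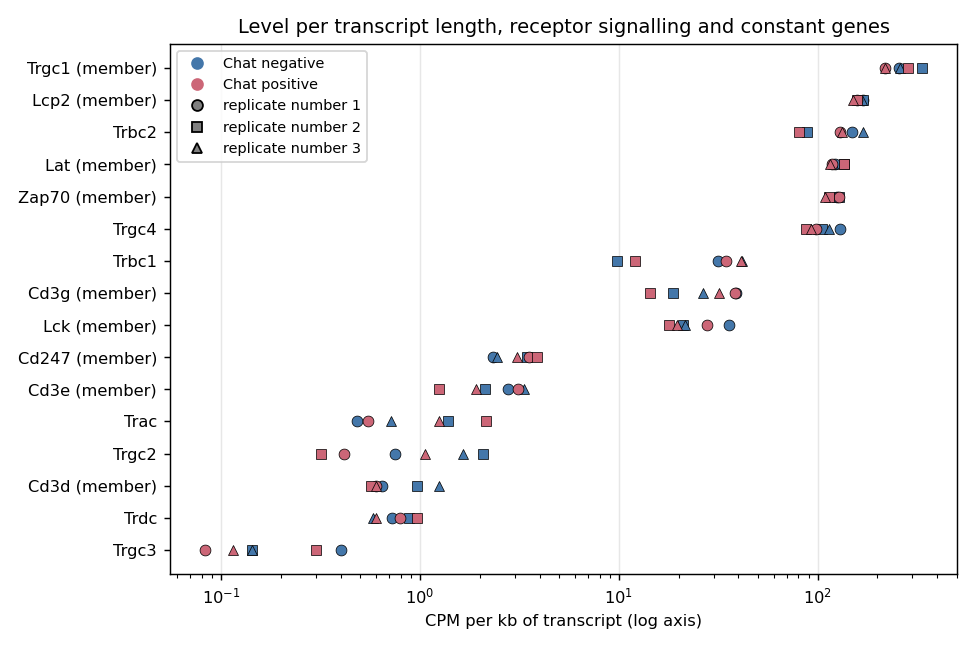
CPM per kilobase of transcript (x axis, log scale) in each of the 6 libraries for the 9 genes, marked as member, and the other receptor constant genes (y axis), coloured by gate and shaped by replicate number. Trgc1, Lcp2, Lat and Zap70 lie above 100, and Cd247, Cd3e and Cd3d lie below 4.

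The other receptor constant genes showed which receptor loci gave reads beside Trgc1. Per kilobase, Trbc2 (beta chain) averaged 125, Trgc4 104 and Trbc1 28.5, whereas Trac (alpha) averaged 1.09, Trgc2 1.04, Trdc (delta) 0.758 and Trgc3 0.197. Trbc2 exceeded Trac 37.9 to 310.2 times within single libraries. Trgc3 fell under the filter. Of the 6 tested constant genes 0 passed the threshold. Trgc4 stood at 128, 103 and 113 CPM in Chat negative libraries 1 to 3 and at 96.5, 85.7 and 90.8 CPM in the Chat positive ones, so its gates did not overlap (log2 difference -0.33, SE 0.12, unadjusted p = 0.0235, adjusted p from edgeR 1.00). Trgc2, with 14 to 82 counts, had a log2 difference of -1.32 (SE 0.62).

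Raw counts on the gene segments upstream of the constant genes were very unequal, but these shares are not divided by row length. Per kilobase, a rough measure for rows this short, Trgj1 averaged 392 against 261 for Trgc1, and Trgj4 85.5 against 104 for Trgc4. Trbj2-1 averaged 120 against 125 for Trbc2, and the other beta joining segments were lower than Trbj2-1. Trbc1 averaged 28.5, and of the joining segments upstream of it Trbj1-1 at 94.3 and Trbj1-2 at 41.99 stood above it. The other Trbj1 segments stood below Trbc1, at 10.9 to 24.9. The gamma variable segments averaged at most 4.49 per kilobase. In the gamma locus 91.0% of the counts fell on constant genes, 7.6% on joining segments and 1.45% on the 7 variable rows. In the beta locus the shares were 82.9% for constant genes, 16.4% for joining segments and 0.323% for the 24 variable rows, of which 15 were at 0 in all libraries. Of the alpha locus 50 of 51 joining rows and 101 of 116 variable rows were at 0. The delta locus went the other way, with 80.7% of its counts on variable rows and 18.8% on Trdc. Of the delta variable segments Trdv4 stood at 9.87 to 15.2 CPM (log2 difference 0.22, SE 0.17).

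The 2 abundant gamma joining segments resembled their own constant genes. Trgj1, the segment upstream of Trgc1, stood at 22.5, 29.3 and 24.7 CPM in Chat negative libraries 1 to 3 and at 20.3, 24.4 and 19.9 CPM in Chat positive libraries 1 to 3, highest in library 2 of each gate like Trgc1. Its log2 difference was -0.24 (SE 0.16), the same to 2 decimals as that of Trgc1. Trgj4, upstream of Trgc4, stood at 7.56, 5.12 and 6.0 CPM against 4.46, 3.88 and 4.27 CPM, with no overlap (log2 difference -0.57, SE 0.22, unadjusted p = 0.0382, adjusted p from edgeR 1.00). In the beta locus Trbj2-1 and Trbj1-1 led, at 3.20 to 9.05 and 1.03 to 7.78 CPM. The gamma variable segments were scarcer, with Trgv4 at 1.51 to 2.43 CPM, Trgv5 at 0.820 to 2.03 CPM and Trgv2 at 0.108 to 1.52 CPM. A segment row spans few bases, and whether a read crossed a junction cannot be seen in a count table.

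**Figure D4:**
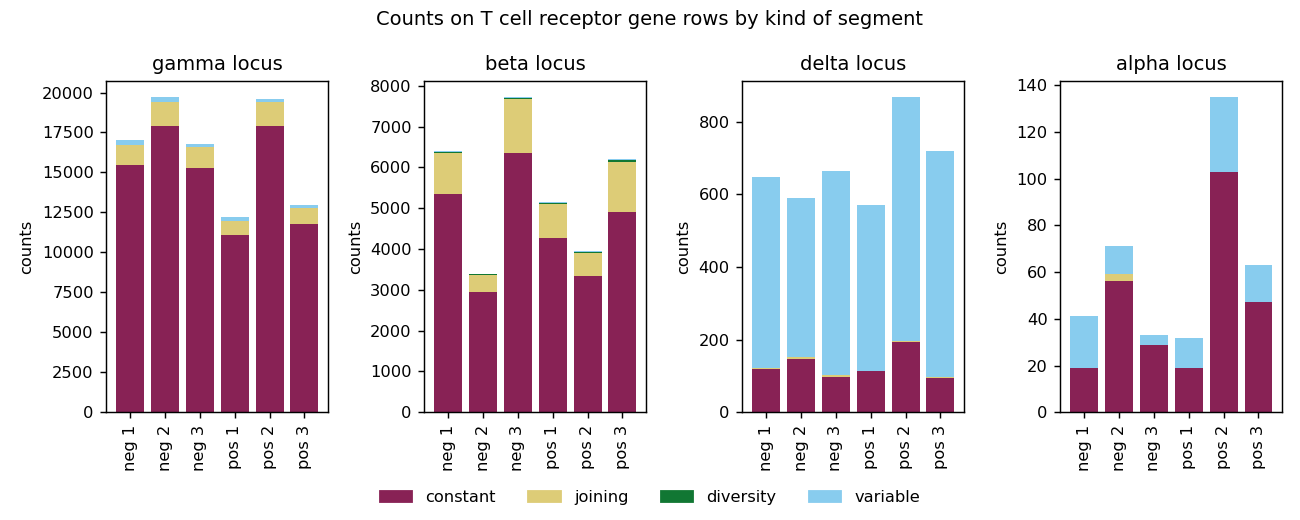
Raw counts (y axis, linear from 0, its own scale in each panel) on rows of the 4 receptor loci in each library, with stacked bars coloured by constant, joining, diversity and variable segments. Constant genes make up 91.0% of gamma and 82.9% of beta counts, variable rows 80.7% of delta counts, and the alpha panel holds few counts in all.

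The genes that rearrange receptor loci were at or near 0. Rag1 and Rag2, the recombinase subunits, had at most 1 count in any library, and Ptcra, the surrogate alpha chain of immature T cells, had 0 counts in all 6, which allows up to 0.0807 CPM in the shallowest library. Such limits cover counting error only. Dntt, which adds bases at junctions, stood at 0.252 to 1.18 CPM. The T cell coreceptors were similarly scarce. Cd8b1 had 0 counts in all libraries and Cd8a 0 in 5 of 6. Cd4 reached 0.971 CPM in Chat positive library 2 and at most 0.142 CPM elsewhere.

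Markers of alpha beta T cells were looked at beside the 9 genes for this reason. Their 12 genes summed to 193 to 229 CPM in Chat negative and 174 to 199 CPM in Chat positive libraries, mostly from Trbc2, Ubash3a and Trbc1. Of the 12, Cd8a, Cd8b1, Cd5 and Trat1 had at most 10 counts in every library. The 7 gamma delta T cell markers summed to 18.9 to 21.7 and 19.6 to 21.2 CPM, mostly from Trdv4, Cd163l1 and Trdc, with Blk and Trgv6 at no more than 10 counts. This list holds Trgc2 but leaves out Trgc1 (201 to 308 CPM) and Trgc4 (85.7 to 128 CPM). The alpha beta list holds both beta constant genes, so the sums of these lists cannot be compared. The 6 markers of ILC1 and NK cells summed to at most 0.509 CPM, with Klra8 and Klre1 at 0. ILC3 markers summed to 0.784 to 5.88 CPM, mostly from Il22, and myeloid markers to 1.22 to 4.68 CPM, mostly from Adgre1. Mast cell and basophil markers summed to 278 to 356 CPM, from Kit and Mcpt8, with Cpa3, Mcpt4 and Tpsb2 at 0, and epithelial markers to 34.4 to 89.6 CPM, mostly from Epcam. What part other cells have in the levels of the 9 genes was not tested, and in sorted bulk samples fewer cells of a type and less RNA per cell cannot be told apart.

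The wider pathway, in 8 lists of 75 other genes, also gave no call between the gates. Of the 65 that passed the filter 0 passed the threshold in either direction, and 4 had an unadjusted p under 0.05, where 2.43% of all genes did. Below 0 lay 43 and above 0 lay 22, with a median log2 difference of -0.05. For the 9 genes the counts were 7 below and 2 above with a median of -0.12, and for all genes tested 6373 below and 6594 above with a median of 0.00. DESeq2 with the replicate block called 7 of the pathway genes, with Trgc4, Ubash3a, Prkcq, Dgkz, Rasgrp1 and Pik3cd lower and Nck1 higher in Chat positive cells, where it called 3.67% of all genes. With the same block edgeR called 0 of the 65, and 28 had an unadjusted p under 0.05, against 16.5% of all genes.

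Of the 7 other kinases 0 passed edgeR's threshold. Prkcq, the theta isoform of protein kinase C, stood at 420.5, 245 and 442 CPM in Chat negative libraries 1 to 3 and at 352, 223 and 368 CPM in the Chat positive ones, lowest in library 2 of each gate. Map4k1 ranged from 135 to 218 CPM and Fyn from 117 to 161 CPM. Txk, a Tec family kinase, was scarce at 4.6 to 20.8 CPM. Syk, Tec and Map4k1 were highest in library 2 of each gate.

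None of the 19 other adaptors and exchange factors passed. Skap1 (320.2 to 474 CPM), Vav1 (369 to 420.1 CPM) and Lat2 (318 to 439.6 CPM) were abundant. Themis, which T cells need during thymic selection, stood at only 0.715 to 2.93 CPM, while Tespa1, a thymocyte signalling protein, stood at 74.7 to 110.2 CPM (log2 difference -0.26, SE 0.14). Nck1 had a log2 difference of 0.28 (SE 0.18). Among the 8 downstream enzymes and scaffolds, Pik3cd, the leukocyte catalytic subunit of PI3 kinase, stood at 955, 932 and 905 CPM in Chat negative libraries and at 788, 876 and 757 CPM in Chat positive ones, with no overlap. Rasgrp1, a Ras activator downstream of diacylglycerol, stood at 485, 392 and 439 CPM against 368, 355 and 386 CPM, also without overlap (log2 difference -0.25, SE 0.11, unadjusted p = 0.059).

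Of the 15 negative regulators 0 passed. Dgkz, which removes diacylglycerol, stood at 163, 149 and 142 CPM in Chat negative libraries and at 125, 120.1 and 130.2 CPM in Chat positive ones, with no overlap (log2 difference -0.27, SE 0.10, unadjusted p = 0.0270). Ubash3a, a phosphatase family member that restrains receptor signalling, had a log2 difference of -0.35 (SE 0.17). Inpp5d (491 to 621 CPM), Dok2 (385 to 441 CPM) and Sla (266 to 383 CPM) were the most abundant per kilobase.

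Surface proteins that work beside the receptor included Cd2 and Cd6, whose fitted differences were the 2 highest of the pathway lists. Cd2, an adhesion receptor of T and NK cells, had 8, 8 and 11 counts in Chat negative libraries and 33, 57 and 26 counts in Chat positive ones, or 0.184 to 0.255 against 0.646 to 1.11 CPM. The gates did not overlap (log2 difference 2.06, SE 0.46, unadjusted p = 0.00265, adjusted p from edgeR 1.00). Cd6 had 19, 5 and 11 against 23, 49 and 61 counts (log2 difference 1.91, SE 0.62). Both levels are low, and neither gene passed the threshold. Cd28, a costimulatory receptor, ranged from 4.56 to 28.8 CPM and was highest in library 2 of each gate. Ptprc, the CD45 phosphatase that activates LCK, stood at 1200 to 1564 CPM, and its partner Ptprcap at 428 to 465 CPM.

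Other ITAM or DAP10 adaptors, which couple receptors to ZAP70, SYK or PI3 kinase, were also present. Per kilobase Hcst (DAP10) averaged 112, Cd79b 52.5 and Fcer1g 39.8, while Tyrobp (DAP12) averaged 1.91, so the first 3 stood above the 3.12 of Cd247. Of the 4 that were tested 0 passed. The Chat negative libraries had 46.1, 18.9 and 31.5 CPM of Fcer1g and the Chat positive ones 26.8, 18.3 and 21.5 CPM (log2 difference -0.54, SE 0.32). Cd79a had at most 6 counts in any library.

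Some of the 9 genes differed between the replicate numbers. In a joint test of the number beside the gate, chosen after the data had been seen, edgeR's quasi-likelihood test called Cd3g (adjusted p = 0.00114), Lck (adjusted p = 8.65e-04) and Trgc1 (adjusted p = 0.00195). That is 3 of 9, where the same test called 32.5% of all genes, so the share is close to the background and is no result about these genes. DESeq2 and limma-voom called the same number of them, against 33.4% and 29.9% of all genes. In libraries numbered 2 relative to number 1, Cd3g differed by -1.23 and Trgc1 by 0.38 on the log2 scale, so the 2 genes moved in opposite directions. Lck differed by -0.70 in number 2 and by -0.62 in number 3. Trbc1 stood at 7.19 and 8.91 CPM in the libraries numbered 2 and at 23.4 to 30.7 CPM in the others. Mcpt8, a basophil protease gene, stood at 24.9 and 30.8 CPM there and at 124 to 203 CPM in the others. The 6 mast cell and basophil markers together differed far less, with sums of 278 and 301 CPM against 303 to 356 CPM. Mcpt8 therefore does not stand for its list. The part of whatever set these libraries apart in the levels of the 9 genes was not tested.

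**Figure D5:**
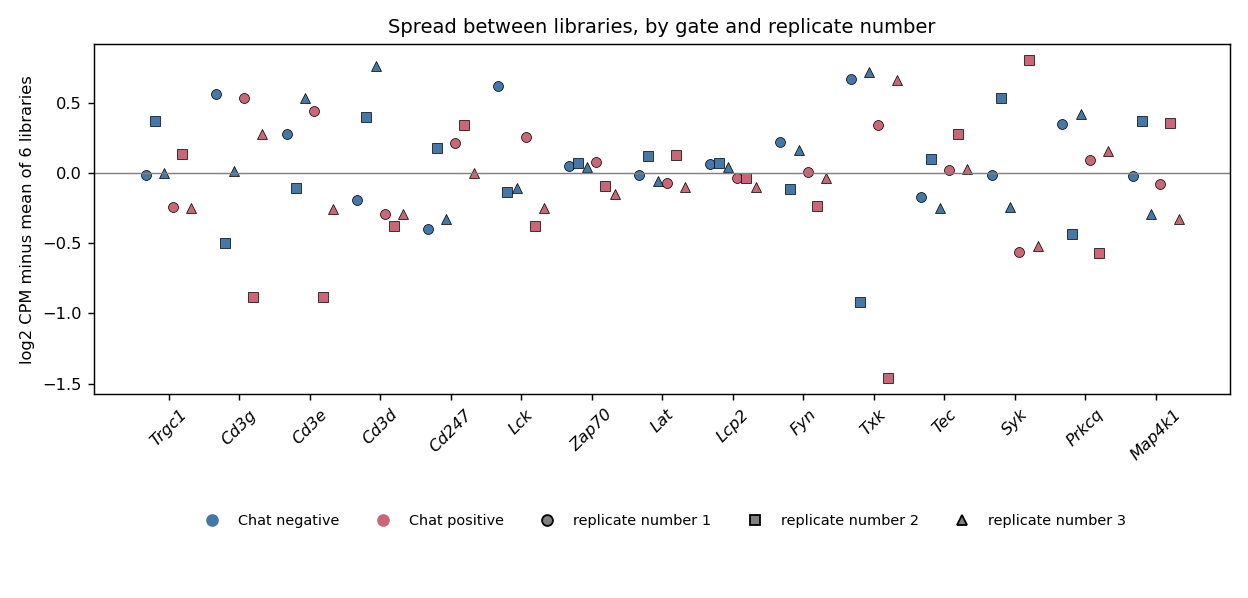
Deviation of log2 CPM from the mean of 6 libraries (y axis) for the 9 genes and 6 other kinases (x axis), with points coloured by gate and shaped by replicate number. Squares (number 2) lie lowest in both gates for Cd3g, Cd3e, Lck, Fyn, Txk and Prkcq and highest in both for Trgc1, Cd247, Lat, Lcp2, Tec, Syk and Map4k1, while Zap70, Lat and Lcp2 spread little.

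The 3 of the 9 genes that varied most between libraries were Cd3g, Cd3e and Cd3d, with SDs of log2 CPM of 0.58, 0.51 and 0.43. Cd3e (94 to 210 counts per library) and Cd3d (36 to 87) had the fewest counts of the 9, so counting noise adds to their SDs. The SD of Cd3d also holds the separation between its gates. The genes whose pattern over the 6 libraries lay nearest were found by the root mean square difference of centred log2 CPM, among tested genes with a mean of at least 10 CPM. For Cd3g they were Pim1 (0.11), Klf9 (0.12) and Ifi27 (0.15), against a median of 0.56 over all candidates. For Cd3e they were Bcam, Cd93 and Ttc38 (0.19 each), against 0.50. For Cd3d they were Sh3tc1 (0.19), Nbeal1 (0.19) and Parp4 (0.21), against 0.44. The named genes are the smallest distances among 8223 candidates for Cd3g and 8224 for Cd3e and Cd3d. They lie below the median by selection, so the gap to the median is no support for a shared pattern. These are descriptions over 6 libraries that share their numbers.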

How the data were processed

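RNA was measured in 6 libraries of sorted mouse ILC2s, made with the SMARTer Ultra Low Input kit, version 4, per the labels' protocols. CASAVA 1.8.2, STAR 2.3.0 and mm10 are named per the submitters' processing notes. The authors deposited raw counts per Entrez gene, and no label names the counter, its strand setting or its handling of reads with several matches. Of 27179 IDs 25275 matched a symbol in the RefSeq table (GRCm38.p6), and the unmatched IDs held at most 0.222% of a library's counts. CPM used edgeR's TMM-scaled totals. Levels per kilobase used the longest transcript in GENCODE vM21, available for 97.2% of tested genes. Gates were compared with edgeR 4.0.16 (glmQLFit, robust, two-sided, filterByExpr) without a block, and p-values were adjusted by Benjamini and Hochberg over all 12967 genes tested, at 5%. DESeq2 1.42.0 and limma 3.58.1 (voom) in R 4.3.3 were alternatives, with other scalings, filters, a replicate block and each library left out. Scripts were tested on simulated data. There edgeR's blocked fit and its joint test of the number gave more false calls than their threshold allows. DESeq2 with the block was not simulated. Replicates differed by more than counting noise (chi-square per degree of freedom of at least 29.9). Same-numbered libraries all correlated above 0.1, so the number was taken to pair them. This rests on the data alone, the labels state no shared animal or day, and Chat negative library 1 correlated as much with Chat positive library 3 (0.33) as with library 1 (0.31). The genes and lists were chosen with earlier results of these data known. Named genes were all 9, every constant and rearrangement gene, from the other lists up to 4 by smallest p and 3 by level per kilobase, and from marker lists the 3 most abundant and those at no more than 10 counts. Receptor segments were named by abundance within a locus. Syk, Themis, Cd4, Trgv2, Trgv5 and Pou2f1 fell outside that rule and were named after their values were seen. Some genes of these lists are not reported here. RefSeq promoters were at hand for 8 of the 9 genes.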

Additional observations from a re-analysis of the deposited data

How the results depend on the processing

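Each of the 9 gate differences was refitted under 17 or 18 alternatives. Trgc1, Cd3e, Cd3d, Cd247, Zap70 and Lcp2 kept their direction in every one. Cd3g, at 0.00, changed sign with DESeq2 size factors (-0.0062), DESeq2 (-0.0056), limma-voom (-0.090), the replicate block in edgeR with or without robust dispersions (-0.047 each) and DESeq2 with the replicate block (-0.055), and ranged from -0.28 to 0.32 with 1 library left out. With 1 library left out Lat ranged from -0.10 to 0.026, above 0 only without Chat negative library 2, and Lck from -0.48 to 0.024, above 0 only without Chat negative library 1. Of the 9 genes, 0 were called under every alternative except DESeq2 with the replicate block (1, Trgc1), which also called 7 other pathway genes. Over all genes, the 1 call became 44 with the replicate block (1 where robust dispersions were left out), 4 with DESeq2, 476 with DESeq2 and the replicate block, 2 without both libraries numbered 2, and 0 to 1 with 1 library left out, 0 without number 1 or 3 of either gate. The cause was not tested. The replicate block changed no other call on the 9 genes. The joint test of the number called 1368 to 5173 genes with 1 library left out, lowest without Chat negative library 2, and 2 to 4 of the 9. Depth limits Cd3d (36 to 87 counts) and Cd3e most.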

Other observations

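Transcripts of B cell receptor parts were unequal in the same libraries. Ighm, the mu heavy chain constant gene, stood at 274, 360.5 and 270.0 CPM in Chat negative libraries 1 to 3 and at 228, 293 and 203 CPM in the Chat positive ones, highest in library 2 of each gate (log2 difference -0.32, SE 0.18). Cd79b, a signalling chain of the B cell receptor, stood at 66.1 to 85.4 CPM. Its partner Cd79a and the B cell markers Ms4a1 and Pax5 had at most 10 counts in every library. Of the 2 tested B cell markers 0 passed edgeR's threshold between the gates.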
